A study of Homo sapiens with 8 samples.

Results

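The genes described here encode the oxidative phosphorylation system, the set of membrane complexes that carries out respiration and makes ATP in mitochondria. They were chosen by symbol from the RNA-seq table: all genes of the mitochondrial genome, the NDUFA, NDUFB, NDUFC, NDUFS and NDUFV subunits of complex I, the 4 SDH genes of complex II, CYC1 and the UQCR genes of complex III, the COX4 to COX8 families of complex IV and the ATP5 genes of complex V. The symbol patterns matched 144 entries, of which 20 were pseudogene symbols and were left out, so 124 of the 30755 symbols in the table were members. Of these, 37 lie on the mitochondrial chromosome (13 mRNAs, 2 rRNAs and 22 tRNAs) and 87 in the nucleus. The nuclear members comprise 79 subunit genes and 8 others, which are related factors, readthrough transcripts and antisense transcripts. The symbol patterns use no measured value, but the members were chosen with earlier results of these data known.

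All libraries came from ESO26, an established cell line grown from an adenocarcinoma of the oesophagus, and so from a single tumour background. RNA was sequenced from cells in which HNF4A had been knocked down by small interfering RNA (siRNA), with 2 libraries (siHNF4A 1 and 2), and from control cells, also with 2 libraries (control 1 and 2). The labels give neither the siRNA sequence, nor the treatment of the control cells, nor the time after transfection, and nothing says that the libraries came from separate cultures. P-values therefore measure only the spread between these libraries, which may be technical. The study also holds 1 ChIP-seq peak list for HNF4A and 1 for Flag-tagged GATA4 in the same line. HNF4A is a nuclear receptor that acts as a transcription factor in endodermal tissues.

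Complexes I to IV pass electrons from NADH or succinate to oxygen, all of them except complex II pump protons across the inner mitochondrial membrane, and complex V (ATP synthase) uses the proton gradient to make ATP. Complex II is built from nuclear genes alone, whereas every other complex joins subunits of both genomes. Mitochondrial DNA is transcribed inside the organelle by its own RNA polymerase into long precursors, which are cut at the tRNAs to release the mRNAs and rRNAs, while the nuclear subunits are transcribed in the nucleus and imported as proteins.

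Normalized counts summed to between 17912507 and 18613685 per library. The number of reads behind them is unknown, so no counting interval is given. Genes listed at 0 numbered 5479 and 5640 in the controls against 4260 and 4362 in the knockdown libraries. Low values are thus compared between groups that differ in this, and its part in the results below was not tested. HNF4A itself, the target of the siRNA, had 4129 and 3937 normalized counts in the controls, compared with 1139.8 and 932 in the knockdown libraries, a log2 fold change of -1.97 (SE 0.0952, adjusted p = 1.59e-05 in limma, n = 2 per group). Genes with a mean of at least 10 were tested with limma on log2(normalized count + 1), which understates the change of low genes, and were called at a Benjamini-Hochberg adjusted p under 0.05. Of the 15577 genes tested, 2202 were called (14.1%): 938 higher in the knockdown (6.02%) and 1264 lower (8.11%). This split depends on the scaling, with 1197 higher and 946 lower once libraries are set to equal totals without mitochondrial symbols. Both knockdown libraries lay above both controls for 26.9% of tested genes and below both for 30.1%. The 6 markers of columnar epithelium, among them KRT8, KRT18 and KRT19, summed to 86803 and 89825 normalized counts in the controls and less, 81968 and 81789, in the knockdown. Of them KRT18 (-0.51), KRT8 (-0.43) and EPCAM (-0.29) were called lower, and KRT19 (0.22) and CDH17 (0.20) higher, with log2 fold changes in parentheses. Squamous markers (3 of 4 in the table) summed to 15.02 to 34.3 in the controls and 18.4 to 36.2 in the knockdown, with KRT13 at 0 in both knockdown libraries and KRT14 called higher. KRT5 had 32.6 and 12.1 in the controls against 6.14 and 10.5 in the knockdown and did not pass the test. Fibroblast markers (3 of 4) summed to 122 to 195 in the controls and 223 in both knockdown libraries. Most of this sum was COL1A1 (179 and 108 against 202 and 212), which was not called, and COL1A2 and DCN overlapped between the groups. Leukocyte markers (2 of 4) summed to 6.43 to 13.2 against 15.4 to 17.6, with PTPRC at 0 in control 1, and endothelial markers (2 of 3) to 15.2 to 24.6 against 47.2 to 63.95, with VWF called higher. The part of these low values in the results below was not tested. In bulk RNA, fewer cells of a type and less RNA per cell cannot be told apart.

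RNA of the mitochondrial genome was higher in the knockdown libraries. All 13 mRNAs had a positive fold change, with a median of 0.38 on the log2 scale and a range from 0.09 for MT-ND3 to 0.50 for MT-ND1. Of the 13, 12 were called higher, and for the same 12 both knockdown libraries lay above both controls. Both rRNAs were called higher as well. The 37 mitochondrial genes together took 2.07% and 1.95% of all normalized counts in the controls against 2.52% and 2.86% in the knockdown libraries. The groups did not overlap, with means of 2.01% ± 0.0846 and 2.69% ± 0.243 (SD, n = 2 each), a difference of 0.682 percentage points. An exact two-sided permutation test of 2 libraries against 2 cannot give a p below 0.33, so this share has no test of its own. Over all tested genes the median log2 fold change was -0.01.

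The 7 mitochondrial subunits of complex I, the entry point for electrons from NADH, include MT-ND1, which had the largest fold change of the mitochondrial mRNAs and rRNAs. It had 23105 and 20149 normalized counts in the controls, compared with 28713 and 32520.4 in the knockdown libraries. Its mean was 41.6% higher, a log2 fold change of 0.50 (SE 0.0749, adjusted p = 0.00256 in limma). MT-ND4, a subunit of the proton-pumping arm, followed with 30590.5 and 26816 against 36023 and 43746, a log2 fold change of 0.47 (SE 0.0878, adjusted p = 0.0072 in limma). In both genes siHNF4A 2 was the highest library and control 2 the lowest. MT-ND5, of the same arm, had 18114 and 16844 in the controls against 21894 and 25304 in the knockdown (log2 fold change 0.43, adjusted p = 0.0039 in limma). MT-ND2 had 47994 and 46019 against 56299 and 66363 (0.38, adjusted p = 0.00653 in limma). MT-ND4L, whose reading frame overlaps that of MT-ND4 by 7 bases, had 4979.6 and 4417 against 5394 and 6439 (0.33, adjusted p = 0.0361 in limma). The overlap means that part of the reads could be counted for either gene, and MT-ND4L was at 0.24 without control 2 (adjusted p = 0.074 in limma) and at 0.20 without siHNF4A 2 (adjusted p = 0.238 in limma).

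MT-ND6 is the protein-coding gene that is read from the opposite strand to all the others. It had 2205 and 2116 normalized counts in the controls, compared with 2448 and 3198 in the knockdown libraries, a log2 fold change of 0.37 (SE 0.109, adjusted p = 0.0486 in limma). The knockdown libraries lay far apart: the log2 fold change was 0.57 without siHNF4A 1 and 0.18 without siHNF4A 2 (adjusted p = 0.29 in limma). Whether counting used the strand is not given in the sources used here, so reads from the antisense precursor could add to this gene.

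MT-CYB encodes cytochrome b, the only mitochondrial subunit of complex III. It had 17169 and 15308 normalized counts in the controls against 20280.4 and 23495 in the knockdown libraries, and its log2 fold change was 0.43 (SE 0.0762, adjusted p = 0.00586 in limma). The catalytic core of complex IV, cytochrome c oxidase, is made by MT-CO1, MT-CO2 and MT-CO3, whose log2 fold changes all came to 0.34. MT-CO1, the member with the highest count, had 82869.8 and 79580.1 in the controls, compared with 97368 and 108330.0 in the knockdown (SE 0.0542, adjusted p = 0.00361 in limma). MT-CO2 had 30387 and 27489 against 35430.5 and 37548, and MT-CO3 had 10739.6 and 10191 against 12620.2 and 13805. For all 3 genes the lower knockdown library lay above the higher control.

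Complex V takes its proton channel subunit from MT-ATP6, which had 14019 and 12250.2 normalized counts in the controls against 15994 and 19176 in the knockdown libraries (log2 fold change 0.42, SE 0.0875, adjusted p = 0.0122 in limma). MT-ATP8 lies on the same transcript and overlaps it by 46 bases. It had 2238 and 1789 against 2418 and 2867 (0.40, SE 0.113, adjusted p = 0.0441 in limma). The higher control and the lower knockdown library of MT-ATP8 stood close together, and its log2 fold change was 0.23 without control 2 (adjusted p = 0.131 in limma) and 0.27 without siHNF4A 2 (adjusted p = 0.244 in limma).

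The rRNAs of the mitochondrial ribosome changed by about as much as the mRNAs. MT-RNR1, the small subunit rRNA, had 22626 and 24553 normalized counts in the controls, compared with 30532 and 32451 in the knockdown libraries, a log2 fold change of 0.42 (SE 0.0553, adjusted p = 0.00146 in limma). MT-RNR2, the large subunit rRNA, had 56708 and 61781 against 72798 and 82930.3, a log2 fold change of 0.39 (SE 0.0649, adjusted p = 0.00422 in limma). The summed rRNAs stood at 0.269 and 0.315 of the summed mRNAs in the controls against 0.299 and 0.292 in the knockdown, so this ratio overlapped between the groups. Within the controls the classes differed: control 2 lay below control 1 for 12 of 13 mRNAs but above it for both rRNAs. In the knockdown group siHNF4A 2 lay above siHNF4A 1 for all 13 mRNAs and both rRNAs.

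**Figure D1:**
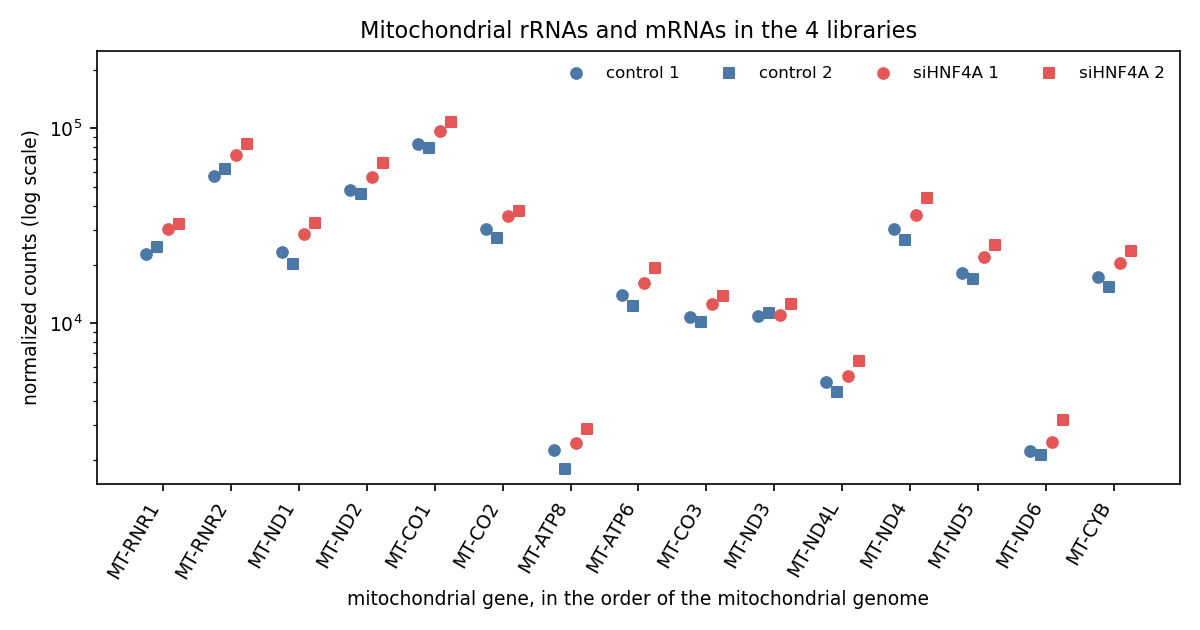
Normalized counts (log scale) of the 2 rRNAs and 13 mRNAs of mitochondrial DNA, in the order of the mitochondrial genome, with 1 point for each of the 4 libraries. The knockdown libraries lie above both controls for all genes shown except MT-ND3, and siHNF4A 2 is the highest library for each gene.

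MT-ND3, a small membrane subunit of complex I, differed from its neighbours on the transcript. It had 10882 and 11276 normalized counts in the controls, compared with 10972 and 12610.2 in the knockdown libraries, with overlapping groups and a log2 fold change of 0.09 (SE 0.0678, adjusted p = 0.445 in limma). As a percentage of the 12 other mRNAs it stood at 3.83 and 4.29 in the controls against 3.28 and 3.29 in the knockdown, below both controls. The same measure was higher in both knockdown libraries for MT-ND1 (8.49 and 7.93 against 9.05 and 8.96), MT-ND4, MT-ND5 and MT-CYB, and overlapped for the remaining 8 mRNAs. This comparison of each mRNA with the rest was made after the value of MT-ND3 had been seen, and it carries no test.

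**Figure D2:**
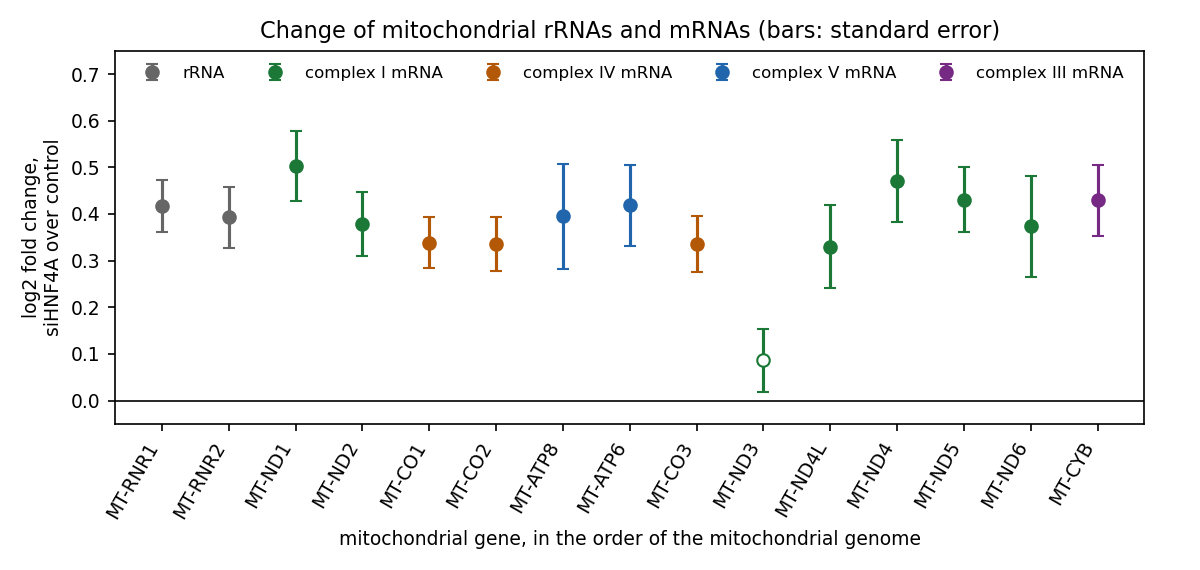
Log2 fold change (siHNF4A over control) of the mitochondrial rRNAs and mRNAs in the order of the mitochondrial genome, with bars for the standard error from limma. MT-ND3, at 0.09, sits below the other genes, which lie between 0.33 and 0.50.

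Per kilobase of gene, with gene lengths from RefSeq, MT-CO1 had the highest level in the controls (52675 normalized counts per kb ± 1509, SD, n = 2). MT-ND2 (45112 ± 1340.4), MT-CO2 (42307 ± 2996) and MT-RNR2 (38002 ± 2301) followed, and neighbours among these 3 differed by less than their summed SDs. MT-ND3 came next at 32021 ± 806 and stood apart from both of its neighbours. The middle of the order ran from MT-RNR1 (24727) over MT-ND1, MT-ND4, MT-ATP6, MT-ND4L and MT-CYB to MT-CO3 (13348), where MT-ATP6 and MT-ND4L alone of the neighbours differed by more than their summed SDs. MT-ATP8 (9728 ± 1533) and MT-ND5 (9646 ± 496) did not differ beyond their spread, and MT-ND6 was lowest at 4115 ± 120.3. In the knockdown libraries the order was the same except that MT-ATP8 and MT-ND5 changed places. The levels of genes on a shared precursor thus spanned more than the change between the groups.

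None of the 22 mitochondrial tRNAs was called. Only 9 reached a mean of 10, with log2 fold changes from -0.46 for MT-TY to 0.86 for MT-TE, 4 of them positive and 5 negative. The highest count was that of MT-TP, the proline tRNA, with 615 and 645 normalized counts in the controls, compared with 643 and 608 in the knockdown (log2 fold change -0.01, SE 0.0979, adjusted p = 0.956 in limma). MT-TN, the asparagine tRNA, had 286 and 347 against 233 and 295, and MT-TC, the cysteine tRNA, had 214 and 360.4 against 341 and 286. Their groups overlapped. The 22 tRNAs summed to 1338 and 1694 in the controls against 1446 and 1546 in the knockdown, also with overlap. Mature tRNAs are short and structured and are poorly captured by standard RNA-seq libraries, so these values need not follow the amount of tRNA.

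Nuclear copies of mitochondrial genes could share reads with them. The table lists 52 such pseudogene symbols, which together reached at most 241 normalized counts in a library. Over the 4 libraries together they came to 0.0452% of the mitochondrial rRNA and mRNA sum. No such symbol was found for MT-ND4L, MT-CYB, MT-CO1, MT-CO2, MT-CO3 and MT-RNR1. How reads that match both were counted is not given in the sources used here, so these counts do not show how many reads were shared. For a single gene they reached at most 1.33%, for MT-ND6. Adding the copies to their genes left the log2 fold change of MT-ND6 at 0.37 and that of MT-ND1 at 0.50.

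The calls of the mitochondrial mRNAs and rRNAs rest in part on siHNF4A 2. Without it 4 of the 15 genes were called, namely MT-ND1, MT-ND5, MT-RNR1 and MT-RNR2, and without control 2 it was 12. With no filter on low values 3 were called and with no variance trend 0. MT-ND3 had a log2 fold change of -0.01 without siHNF4A 2, while the other 14 genes remained positive when any single library was left out and under each scaling tried.

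The nuclear subunit genes mostly had small negative fold changes. Of the 79, 75 were tested, and 65 of these had a negative log2 fold change and 10 a positive one, with a median of -0.11. Both knockdown libraries lay below both controls for 43 of the 75, above both for 5, and overlapped with them for 27, beside 30.1% below and 26.9% above over all tested genes. Yet only 6 passed the test as lower and 1 as higher, that is 9.33% called against 14.1% of all tested genes. The median is read beside genes of like level: among the 4537 tested genes with a mean of at least 1000, 9.76% were called higher and 16.4% lower, 60.1% had a negative fold change and the median was -0.05, with both knockdown libraries below both controls for 43.8% and above both for 25.4%. Of the 55 nuclear subunits at that level, 48 were negative (87.3%), 5 were called lower and 1 higher, with a median of -0.11, and 33 had both knockdown libraries below both controls and 4 above. Some scalings shift the number of negative subunits: with quantile normalization, or with equal totals without mitochondrial symbols, 55 of the 75 were negative, the medians were -0.07 and -0.06, and NDUFC2 and SDHD alone remained called lower. With median-ratio size factors 65 were negative, the median was -0.11 and the same 6 were called lower. In the equal-totals setting 64 of the 75 lay below the median of all genes, and with quantile normalization 54. When a library was left out this count was 65 without control 1, 55 without control 2, 66 without siHNF4A 1 and 55 without siHNF4A 2. Without control 1 the count called lower was 9, and without control 2, siHNF4A 1 or siHNF4A 2 it was 2 each. SDHD was called lower in all of these fits. NDUFS1 and UQCR11 lost their calls when any single library was left out, UQCRH and ATP5G3 when a library other than control 1 was, and NDUFC2 without siHNF4A 2. Many nuclear subunits have processed pseudogenes, and how reads shared with such copies were counted is not given in the sources used here.

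Summed over the nuclear subunits, normalized counts came to 148747 and 156053 in the controls, compared with 143618 and 137698 in the knockdown libraries, a mean difference of -7.70%. Within each group most nuclear subunits and the mitochondrial mRNAs were ordered in opposite ways, whereas in the controls the mitochondrial rRNAs had the order of the nuclear subunits. Control 2 lay above control 1 for 62 of the 75 nuclear subunits, and siHNF4A 2 lay above siHNF4A 1 for 16 of them. The library with more mitochondrial mRNA in each pair was therefore the library with less nuclear subunit mRNA for most genes, and the difference between groups has the same sense as this spread within them. Whether it is a property of the cells or of the libraries was not tested.

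Complex I contributes 36 nuclear subunits, all tested, of which 30 had a negative fold change (median -0.11). NDUFC2 on chromosome 11, a membrane-arm subunit, fell: it had 1675 and 1828 normalized counts in the controls against 1376 and 1329 in the knockdown (log2 fold change -0.37, SE 0.0787, adjusted p = 0.013 in limma). It overlaps other genes in RefSeq, among them its readthrough NDUFC2-KCTD14, which was listed at 0 in every library. NDUFS1, the largest core subunit, holds iron-sulphur clusters of the electron path. It fell from 6009.7 and 5888 to 5290.2 and 5109.9 (log2 fold change -0.19, SE 0.0565, adjusted p = 0.0477 in limma).

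Complex II, which oxidizes succinate and also belongs to the citric acid cycle, has no mitochondrially encoded subunit. SDHD, a membrane anchor, had 2634 and 2738 normalized counts in the controls against 2031 and 2043 in the knockdown libraries, a mean difference of -24.2% (log2 fold change -0.40, SE 0.0666, adjusted p = 0.00443 in limma). It had the smallest adjusted p of the nuclear members and no overlapping gene in RefSeq. Its partners did not pass the test. The catalytic subunit SDHA had 2934 and 2913 against 2759 and 2719 (-0.09, SE 0.0629, adjusted p = 0.365 in limma), SDHB had 1476 and 1578 against 1613 and 1530.3, and SDHC had 2007 and 2119.5 against 2101 and 1986. The groups of SDHB and SDHC overlapped.

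In complex III, 8 of 9 nuclear subunits had a negative fold change and 2 small subunits were called lower. UQCR11 had 832 and 829 normalized counts in the controls, compared with 671 and 668 in the knockdown (log2 fold change -0.31, SE 0.0896, adjusted p = 0.0467 in limma). The hinge protein gene UQCRH had 3625 and 3803 against 3248 and 2996 (-0.25, SE 0.0676, adjusted p = 0.0356 in limma). CYC1, cytochrome c1, had the highest count, not divided by length, with 4265 and 4420.3 against 3991 and 3763, and did not pass the test (-0.16, SE 0.0623, adjusted p = 0.114 in limma). UQCRQ, with COX7B of complex IV, had the lowest fold change of the tested nuclear members (-0.43) but wide spread, with 687 and 912 against 666 and 517 (SE 0.154, adjusted p = 0.0958 in limma).

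All 11 tested nuclear subunits of complex IV had a negative fold change, but none was called. For 8 of them both knockdown libraries lay below both controls. This held for 30.1% of all tested genes and 43.8% of those with a mean of at least 1000. COX5A, with the highest count, had 4672 and 4967 normalized counts in the controls against 4274 and 4233 in the knockdown (log2 fold change -0.18, SE 0.0605, adjusted p = 0.0792 in limma). COX7B had 1363 and 1799.7 against 1034 and 1307 (-0.43, SE 0.14, adjusted p = 0.0711 in limma). Several complex IV subunits exist as tissue isoforms, and in ESO26 cells the variants known from muscle, testis or hypoxic cells stayed below the tested range. Their counts are not divided by length. COX7A1 was at 1.36 to 5.66 normalized counts beside 2679.8 to 2992 for COX7A2. COX6B2 was at 2.70 to 8.89 beside 1224 to 1363 for COX6B1, and NDUFA4L2 at 1.14 to 2.97 beside 2175 to 2454 for NDUFA4, which is counted here with complex IV. COX7B2 was above 0 in siHNF4A 1 alone. The common form was the higher of each pair in all 4 libraries. COX4I2, COX6A2 and COX8C were not analysed here.

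Complex V contributes 15 nuclear subunits, of which 13 had a negative fold change (median -0.16) and 1 was called. ATP5G3 on chromosome 2, one of several genes for the rotating c-ring subunit, had 4077 and 4478 normalized counts in the controls, compared with 3695 and 3463 in the knockdown (log2 fold change -0.26, SE 0.0694, adjusted p = 0.0366 in limma). The catalytic beta subunit ATP5B, with the highest count of the nuclear members, had 8573 and 9103 against 8193 and 7669 (-0.16, SE 0.059, adjusted p = 0.113 in limma). ATP5D, a central stalk subunit, had 759 and 834 against 618 and 652 (-0.32, SE 0.0976, adjusted p = 0.0534 in limma). ATP5L went the other way, with 2883 and 2894 against 3434 and 3195 (0.20, SE 0.0658, adjusted p = 0.0765 in limma). Of the 8 nuclear members that are not subunits, such as COX7A2L, ATP5S and the antisense transcripts NDUFA6-AS1 and NDUFB2-AS1, 6 were tested and none was called.

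**Figure D3:**
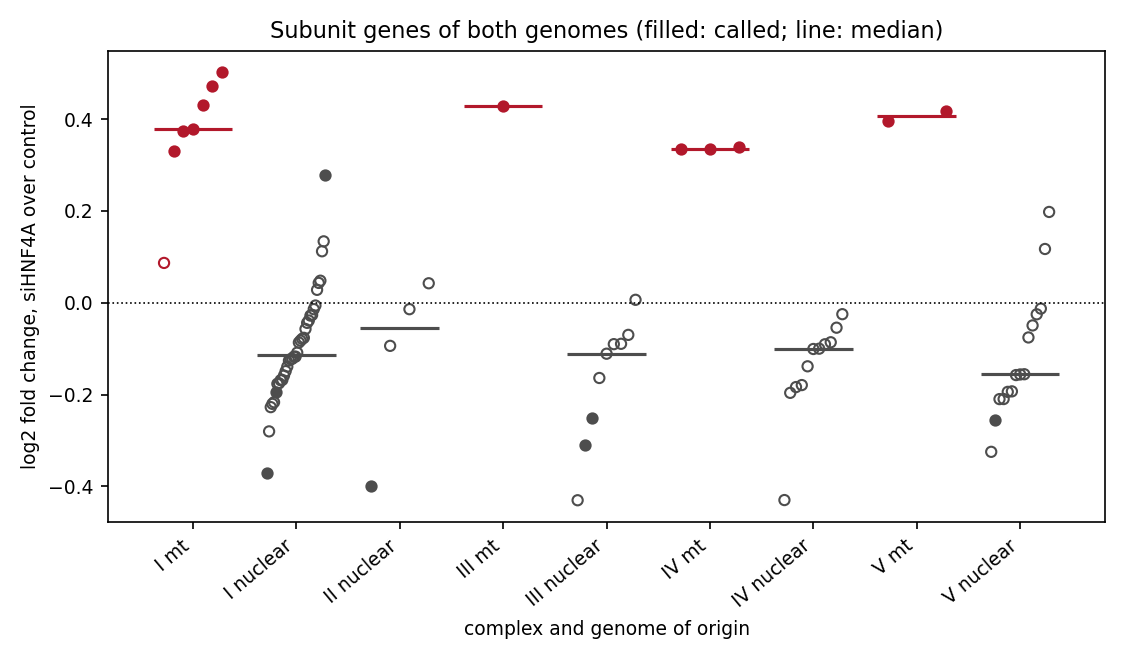
Log2 fold change (siHNF4A over control) of each tested subunit gene, by complex and genome of origin, with 1 point per gene, filled where the gene was called, and a line at the median. The mitochondrial mRNAs lie above 0 in every complex, while the nuclear medians lie between -0.05 and -0.16.

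Set against each other, the subunit mRNAs of both genomes stood in another ratio in all 4 shared complexes. The ratio of summed mitochondrial to summed nuclear subunit counts for complex I was 2.78 and 2.47 in the controls against 3.37 and 4.06 in the knockdown, 41.7% higher on average. For complex III it was 0.879 and 0.760 against 1.11 and 1.34 (49.1% higher), for complex IV 4.62 and 4.08 against 5.64 and 6.46 (39.2%), and for complex V 0.372 and 0.304 against 0.428 and 0.546 (44.1%). The groups did not overlap in any complex. Over all subunits the ratio was 1.99 and 1.76 against 2.41 and 2.87. These are ratios of normalized counts, not of molecules, since the sums are not divided by gene length. Complex II, with nuclear genes alone, summed to 9051 and 9348 in the controls, compared with 8504 and 8278 in the knockdown.

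**Figure D4:**
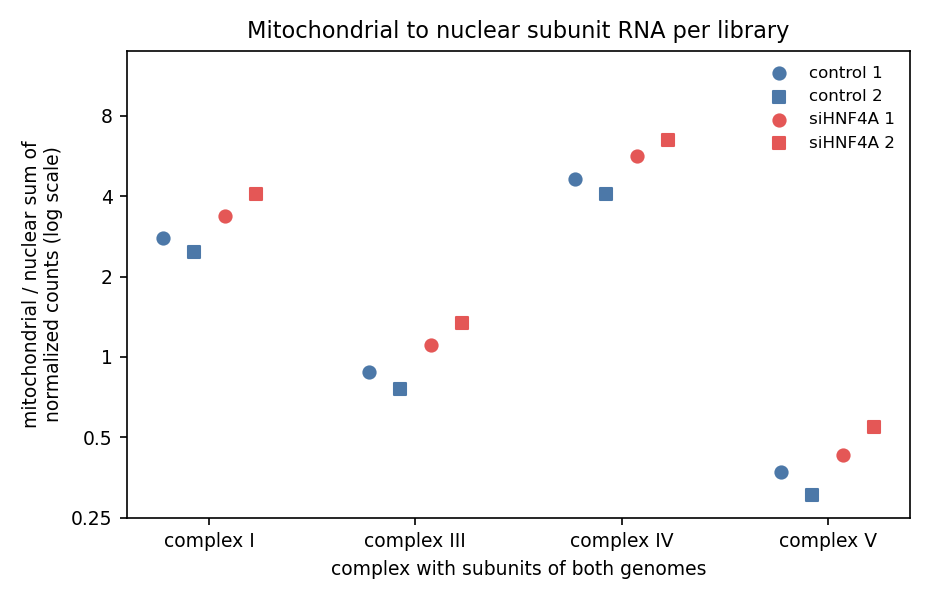
Ratio of summed mitochondrial to summed nuclear subunit normalized counts (log scale) in complexes I, III, IV and V, with 1 point for each of the 4 libraries. In each complex both knockdown libraries lie above both controls, and siHNF4A 2 is the highest.

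ETS factors, NRF1 and YY1 are known to act at the promoters of many nuclear respiratory genes. Promoter windows from RefSeq (GRCh38.p14, from 250 bases before to 50 bases after each listed start) were searched on both strands for exact letters. Of the 74 tested subunits with a RefSeq match, 61 had a window. CCGGAAG, the core bound by ETS factors such as GABPA, was in 20 of the 61 (32.8%), beside 12.2% of 27305 genes with a window. TGCGCATGC, the NRF1 motif, was in 8 (13.1%, beside 1.88%), and AAGATGGCG, the YY1 motif, in 9 (14.8%, beside 2.14%). CAAAGTCCA, a form of the HNF4 site, was in 0 of the 61, beside 0.472% of all genes. Hits of different motifs shared no bases in these windows. All 4 nuclear members called lower that have a window, NDUFS1, SDHD, UQCR11 and UQCRH, hold CCGGAAG, and their promoters are shown for that reason. A match of letters is a description and not a binding site.

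The stretches run 5′ to 3′ on the strand of the gene, end at the base before the start and begin no further upstream than the next RefSeq gene. Capitals mark CCGGAAG or its complement CTTCCGG and, in SDHD, also TGCGCATGC. NDUFS1 lies at chr2:206159445-206159606 on the minus strand, SDHD at chr11:112086757-112086872 on the plus strand, UQCR11 at chr19:1605463-1605612 on the minus strand and UQCRH at chr1:46303617-46303697 on the plus strand.
NDUFS1: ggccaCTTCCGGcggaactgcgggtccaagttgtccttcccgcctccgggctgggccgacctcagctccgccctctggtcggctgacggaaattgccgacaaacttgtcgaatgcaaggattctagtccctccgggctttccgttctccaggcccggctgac
SDHD: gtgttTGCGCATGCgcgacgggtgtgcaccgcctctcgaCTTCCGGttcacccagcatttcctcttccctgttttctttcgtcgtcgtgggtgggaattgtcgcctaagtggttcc
UQCR11: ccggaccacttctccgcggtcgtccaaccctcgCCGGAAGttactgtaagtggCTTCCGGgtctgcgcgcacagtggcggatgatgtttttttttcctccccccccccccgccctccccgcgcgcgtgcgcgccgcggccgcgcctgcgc
UQCRH: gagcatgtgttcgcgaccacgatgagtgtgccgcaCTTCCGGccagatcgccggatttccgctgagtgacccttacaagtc

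The ETS letters lie from base -157 to -151 before the start of NDUFS1, from -77 to -71 in SDHD and from -46 to -40 in UQCRH. UQCR11 holds them at both -117 to -111 and -97 to -91. The NRF1 letters of SDHD lie from -111 to -103. For NDUFS1 a second listed start has none of these letters in its window. Such promoters are often shared with a gene read the other way. EEF1B2, a translation elongation factor subunit that starts 165 bases from NDUFS1, fell from 7737 and 8324 normalized counts to 5684 and 5310.2 (log2 fold change -0.55, SE 0.0624, adjusted p = 0.0007 in limma). TIMM8B, an import chaperone gene whose near end is 117 bases from SDHD, had 723 and 805 in the controls against 829 and 739 in the knockdown (0.04, SE 0.102, adjusted p = 0.854 in limma). LRRC41, 82 bases from UQCRH, did not pass the test either (-0.14, adjusted p = 0.273 in limma). NDUFS1 and EEF1B2 thus both fell, whereas SDHD fell beside a neighbour with overlapping groups. Counted by listed starts there were 20 head-to-head pairs, which do not take in SDHD and TIMM8B. Of their 19 tested neighbours 3 were called, close to the 14.1% of all tested genes. Besides EEF1B2 these belong to 2 of the 18 pairs whose member was not called, named after their values were seen. The first is NDUFC1 of complex I and NAA15, an acetyltransferase subunit that starts 271 bases away. NAA15 fell from 5916 and 5613 to 2992 and 3071 (-0.93, SE 0.0609, adjusted p = 3.94e-05 in limma), while NDUFC1 had 834 and 860.3 against 725 and 728 and did not pass the test (-0.22, SE 0.0887, adjusted p = 0.134 in limma). The other is ATP5F1 of complex V and WDR77, whose starts are 208 bases apart. WDR77 fell from 2491 and 2617 to 2214 and 2101 (-0.24, SE 0.0694, adjusted p = 0.0444 in limma), while ATP5F1 had 3782 and 3893 against 4172 and 4151 (0.12, SE 0.0592, adjusted p = 0.226 in limma).

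The other nuclear genes of the pathway were followed in 10 lists of 121 genes, all tested, with 10 called higher and 18 lower. The share called was 23.1%, beside 14.1% of all tested genes and 26.2% of those with a mean of at least 1000. A negative fold change was found for 83 (68.6%), beside 51.0% of all tested genes and 60.1% of those with a mean of at least 1000. The means of the list genes ran from 23.7 to 24610. The lists were drawn up with earlier results of these data known. Mitochondrial DNA maintenance and transcription held 15 genes, of which 3 were called lower and 1 higher. TFAM, which packages mitochondrial DNA and starts its transcription, fell from 3169 and 3243 normalized counts to 2770.0 and 2432 (log2 fold change -0.30, SE 0.0758, adjusted p = 0.0262 in limma). SSBP1, the single-strand binding protein of replication, fell from 2868 and 2968 to 2403 and 2408 (-0.28, adjusted p = 0.0191 in limma), and MTERFD1 was called lower as well (-0.39). TOP1MT, the mitochondrial topoisomerase, rose from 836 and 824 to 1100.1 and 1110.1 (0.41, adjusted p = 0.0104 in limma). POLRMT, the mitochondrial RNA polymerase, had 737 and 788 against 766 and 729 with overlapping groups (-0.03, SE 0.0933, adjusted p = 0.873 in limma). Mitochondrial mRNA was thus higher in libraries in which TFAM was lower. Without siHNF4A 2 TFAM no longer passed the test (-0.21, adjusted p = 0.186 in limma), and over the 10 lists 10 genes were called without siHNF4A 2 and 15 without siHNF4A 1, in place of 28. Quantile normalization left 22 and equal totals 23.

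In the list of mitochondrial RNA processing and stability, 13 of 16 genes had a negative fold change and 3 were called, all lower. GRSF1, a protein of the mitochondrial RNA granules, fell from 5776 and 6068 normalized counts to 4320.2 and 4363 (log2 fold change -0.45, SE 0.0582, adjusted p = 0.00133 in limma). PNPT1 and SUPV3L1 encode the exonuclease and the helicase of the mitochondrial RNA degradosome. PNPT1 fell from 2478 and 2572 to 1870.0 and 1951 (-0.40, adjusted p = 0.00501 in limma) and SUPV3L1 from 1418 and 1232 to 1052 and 988 (-0.37, adjusted p = 0.0261 in limma). SUPV3L1 lost its call with quantile normalization (adjusted p = 0.0511 in limma), with equal totals (0.0525), and without control 1, siHNF4A 1 or siHNF4A 2. LRPPRC, which protects mitochondrial mRNAs, had 12910.3 and 13053 against 12370.4 and 11454 and did not pass the test (-0.13, adjusted p = 0.164 in limma). It was named after its value had been seen.

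Assembly factors insert cofactors and join subunits of the complexes. For complex I the list held its assembly factors and its acyl carrier subunit, and 3 of 14 genes were called lower: NDUFAF4 fell from 562 and 573 normalized counts to 363 and 389 (log2 fold change -0.59, SE 0.108, adjusted p = 0.00656 in limma), TMEM126B from 1325 and 1446 to 965 and 1000.4 (-0.49), and the acyl carrier protein NDUFAB1 from 988 and 984 to 816 and 776 (-0.31). NDUFAB1 lost its call with quantile normalization (adjusted p = 0.0789 in limma), with equal totals (0.0723) and when any single library was left out. SDHAF2, which attaches the flavin to SDHA, fell from 666 and 619 to 486 and 398 (-0.54, SE 0.122, adjusted p = 0.0167 in limma) and was the only 1 of 4 complex II factors called. The 6 complex III factors had a positive median (0.22), with 3 called higher and none lower. LYRM7, a chaperone of the Rieske protein, rose from 246 and 172 to 306 and 333 (0.63, SE 0.178, adjusted p = 0.0425 in limma). Its value rests on control 2, without which it was 0.37 (adjusted p = 0.173 in limma), and the call was also lost with quantile normalization (adjusted p = 0.056 in limma). UQCC1 rose from 771 and 696 to 936 and 986 (0.39), and C11orf83, now named UQCC3, from 219.5 and 213 to 296 and 316 (0.50). All 3 lost their calls without control 2, siHNF4A 1 or siHNF4A 2. Of 21 complex IV factors COX20 (-0.34) and TACO1 (-0.34), the translational activator of MT-CO1, were called lower and COA3 (0.32) higher, the call of TACO1 being lost with quantile normalization (adjusted p = 0.0538 in limma) and equal totals (0.0619), and when a library other than control 1 was left out. None of the 4 complex V genes was called, the ATP synthase inhibitor ATPIF1 included (-0.22, adjusted p = 0.104 in limma).

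Electron carriers and coenzyme Q synthesis had 4 of 17 genes called. PDSS1 and PDSS2 encode the subunits of the enzyme that makes the tail of coenzyme Q, and they were called in opposite directions. PDSS1 fell from 663 and 647 normalized counts to 478 and 459 (log2 fold change -0.48, SE 0.1, adjusted p = 0.0118 in limma), while PDSS2 rose from 403 and 434 to 565 and 529 (0.39, SE 0.109, adjusted p = 0.0428 in limma). COQ2 (0.35) and ADCK4, now named COQ8B (0.49), were called higher. Of 9 regulators of these genes 1 was called: ESRRA, a nuclear receptor that drives respiratory genes, fell from 1638 and 1691 to 1293 and 1225 (-0.40, SE 0.0765, adjusted p = 0.00782 in limma, and 0.0588 without siHNF4A 2). Its coactivator gene PPARGC1A was low, with 129.8 and 173 against 135 and 131, and did not pass the test (-0.17, SE 0.192, adjusted p = 0.609 in limma).

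Of 15 other mitochondrial proteins 4 were called lower and 2 higher. The outer-membrane channels VDAC1 (5082 and 5244 normalized counts against 4019 and 3971, log2 fold change -0.37) and VDAC2 (-0.39) fell, as did the import receptor TOMM20 (-0.26) and the prohibitin PHB (-0.37). TOMM22, another receptor of the same import complex, rose from 559.6 and 634 to 963 and 987 (0.71, SE 0.0981, adjusted p = 0.00175 in limma). Genes outside the respiratory chain were thus called as well, in both directions. Of the called list genes that were refitted with a library left out, GRSF1, PNPT1, NDUFAF4, TMEM126B, VDAC1, VDAC2 and TOMM22 were called whichever library was left out. SDHAF2 and PDSS1, like TFAM and ESRRA, lost their calls without siHNF4A 2. TOP1MT, SSBP1, COX20, COA3, PDSS2 and ADCK4 lost theirs on leaving out at least 2 of the libraries in turn, and COX20 also with quantile normalization and equal totals.

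**Figure D5:**
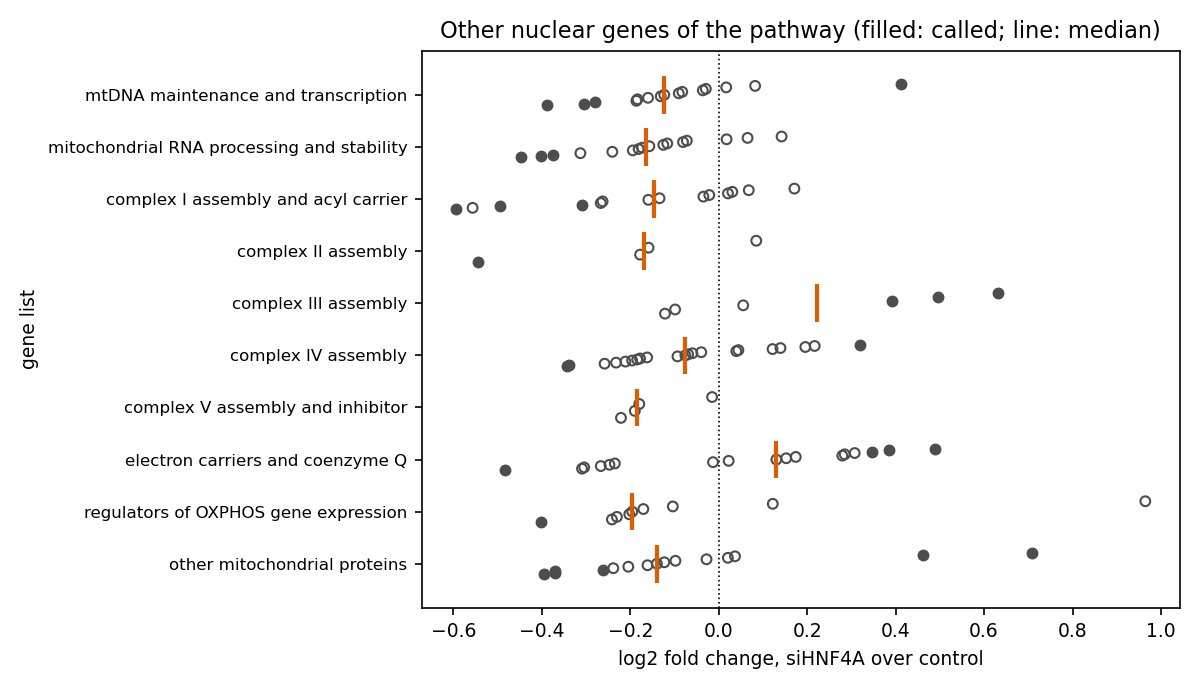
Log2 fold change (siHNF4A over control) of each gene in the 10 lists of other nuclear pathway genes, with 1 point per gene, filled where the gene was called, and a line at the list median. Complex III assembly (median 0.22) and electron carriers and coenzyme Q (median 0.13) have medians above 0, and the other 8 lists have medians below 0.

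Of 3 RNAs that stay in the nucleus, 1 was called: NEAT1 had 6273 and 5009.8 normalized counts in the controls, compared with 7707 and 7326 in the knockdown libraries (log2 fold change 0.42, adjusted p = 0.0148 in limma). MALAT1 had 22979 and 17474 against 22668 and 22609 (0.18, adjusted p = 0.281 in limma). KCNQ1OT1 had 687 and 674 against 661 and 636 (-0.07, adjusted p = 0.682 in limma), with both knockdown libraries below both controls. NEAT1 moved with the mitochondrial mRNAs between the groups and, like them, was lower in control 2 than in control 1, but it was not higher in siHNF4A 2. The part of NEAT1 in the result was not tested.

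In the ChIP-seq lists, whose values are the authors' own and come from 1 library each, the mitochondrial chromosome held 1 peak in each. The HNF4A peak ran from base 98 to 16363, a width of 16266 bases that takes in nearly the whole circular genome. Its signal value of 2.23 (a fold enrichment) ranked 5487 of 5494 peaks, against a median of 6.31, while its -log10 q of 31.3 was above the median of 7.76. The GATA4 peak covered bases 15884 to 16319, a width of 436 bases, with a signal value of 1.98 that ranked 2572 of 2607 (median 7.29) and a -log10 q of 15.8 (median 8.59). Both peaks were thus low by fold and above the median by q. No input control is described in the sources used here, and mitochondrial DNA is present in many copies per cell.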

How the data were processed

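RNA was sequenced from 2 siHNF4A and 2 control libraries of ESO26 cells. The RNA-seq table holds fractional normalized counts, a signal value that the authors deposited after normalization. The counting program, annotation, normalization and strand setting are not given in the sources used here. The submitters' processing notes name Bowtie, Bowtie2, Trim Galore, Picard, MACS2 and hg19, without versions or roles. The peak lists give, as the authors deposited them, a fold enrichment (ratio), -log10 p and -log10 q, and a score. Low values lay on steps of a size that differed between genes, so read numbers stayed unknown and a count model was not used.

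limma 3.58.1 in R 4.3.3 (lmFit, eBayes with trend) compared log2(normalized count + 1) without a block. Genes with a mean of at least 10 were tested and p-values adjusted over all 15577 of them (Benjamini-Hochberg). Member symbols were matched to RefSeq by current symbol or synonym, 123 of 124. Sequences and lengths come from RefSeq GRCh38.p14. Peaks at member promoters were not counted, since no hg19 annotation was used here. The 4C libraries were not analysed here, and the series' text mentions more RNA-seq replicates than the 2 per group used.

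The sums with nuclear copies of mitochondrial genes and the background of genes with a mean of at least 1000 were added after the data had been seen. The members and the gene lists were chosen with earlier results of these data known. Named genes are all mitochondrial mRNAs and rRNAs, nuclear members called, the nuclear member with the highest mean of each complex, tissue isoforms, up to 3 called genes with the smallest p per list, PPARGC1A, TFAM, POLRMT and HNF4A. Other genes named were chosen after their values were seen, among them UQCRQ, COX7B, ATP5D, ATP5L and the tRNAs. The values of 2 called genes are not reported here, although the counts take them in.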

Additional observations from a re-analysis of the deposited data

How the results depend on the processing

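The 51 named genes were refitted under 14 alternatives. Of these values, 543 stayed on the same side of the threshold, 165 kept their direction but no longer passed it, and 6 turned. On leaving out 1 library, the log2 fold change of MT-ND3 ranged from -0.014 to 0.187, that of PPARGC1A from -0.376 to 0.035 and that of POLRMT from -0.077 to 0.019. POLRMT also turned to 0.016 with quantile normalization and 0.020 with equal totals.

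Without a variance trend no gene was called, although 3524 genes and 16 members had an unadjusted p under 0.05, and HNF4A, still at -1.97, had an adjusted p of 0.0919 in limma. The counts of members called (21), mitochondrial mRNAs and rRNAs called higher (14), nuclear members called lower (6) and pathway genes called (28) were then all 0. With no filter on low values limma called 726 genes, 4 members, 3 mitochondrial mRNAs and rRNAs, 1 nuclear member as lower and 11 pathway genes. Quantile normalization and equal totals left 2 nuclear members called lower each.

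Leaving out 1 library gave 1013 to 2449 called genes, 6 to 23 members, 4 to 14 mitochondrial mRNAs and rRNAs, 2 to 9 nuclear members lower and 10 to 24 pathway genes. The median log2 fold change of the mitochondrial mRNAs then ranged from 0.27 to 0.52, that of the nuclear subunits from -0.15 to -0.08, and the difference in mitochondrial share from 0.510 to 0.854 percentage points. In these fits the lone library of a group is assumed to vary like the others.

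The library numbers were not treated as pairs, since the deviations of control 1 and siHNF4A 1 correlated at -0.02 over 15577 genes. A replicate block gave 2428 calls (1069 higher, 1359 lower) and as many calls as without it among mitochondrial mRNAs and rRNAs (14), members (21), nuclear members lower (6) and pathway genes (28). Among the nuclear members NDUFS1 and UQCR11 no longer passed (adjusted p = 0.0633 and 0.0526 in limma), and ATP5D and COX7B now did. MT-ND6 and MT-ATP8 were lost with robust variances. The depth is unknown, which limits what low values such as those of the tRNAs and isoforms show.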
